A study of Mus musculus with 4 samples.

Results

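Cultured mouse neural stem cells depleted of the nucleoporin Seh1 (iKO) were compared with control cells (Ctrl) 3 days after growth factor withdrawal, with 1 RNA-seq library on each side. Genes entered the comparison by level alone. The expected counts of a gene's transcripts were added up and scaled by the normalised library size to CPM. For the minimum level alone, CPM was the count over the plain library total. By this measure 12907 of 17621 genes averaged 1 CPM or more in the pair of day 3 libraries and were kept. The other 4714 genes were left out. The question behind the series is what losing Seh1 does to transcription in dividing and in differentiating neural stem cells.

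The cells were primary neural stem cells from newborn (P0) mouse cortex, plated on laminin and poly-L-ornithine. Ctrl cells had the genotype Seh1 f/f and iKO cells the genotype cmv-cre-ert,seh1 f/f. Both groups thus carried the floxed alleles, and the iKO cells also carried a Cre recombinase joined to an estrogen receptor part and named for the CMV promoter, which is active in many cell types. The groups at day 3 (D3) were kept in differentiation medium, from which EGF and bFGF were withdrawn, and the groups at day 0 (D0), used here for reference values, were in growth medium with both factors. The sources used here do not give the inducer treatment, the number of animals or any pooling of cultures. The recombinase and the loss of Seh1 came together in the iKO libraries, so their parts in any difference cannot be told apart. There were no replicates, so no difference was tested, and each fold change is given with an exact 95% interval that covers counting error only.

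Seh1 is a subunit of the Y complex, the scaffold of the nuclear pore, and also of GATOR2, a regulator of the growth kinase mTORC1 at lysosomes. EGF and bFGF hold neural stem cells in the cell cycle, and cells deprived of them leave it and turn on programmes of astrocytes, oligodendrocyte precursors and neurons. p53 is a transcription factor that is stabilised under DNA damage and other stresses and that turns on genes of cell cycle arrest, death and metabolism.

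The 4 libraries held between 19611788 and 21040590 expected counts and between 16043 and 16568 genes with a count. Markers of neural stem and radial glial cells were present in both day 3 libraries: Sox2 was at 618 CPM in D3 Ctrl and 491 CPM in D3 iKO, Sox9 at 340.1 and 339.6 CPM, and Fabp7, the brain fatty acid-binding protein, at 2367 and 1367 CPM. Most defining markers of other cell types were near 0. The leukocyte genes Ptprc and Itgam had no count in either library, 13 microglial markers summed to 3.58 CPM in Ctrl and 4.51 CPM in iKO, and the endothelial genes Cldn5 and Emcn were also at 0, with 11 endothelial markers summing to 4.87 and 7.16 CPM. Of the choroid plexus markers Ttr had 2 counts in D3 Ctrl and 0 in D3 iKO, and the list of 8 summed to 58.4 and 41.1 CPM, nearly all from Otx2, a transcription factor, at 56.1 and 39.0 CPM.

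Seh1l, the gene of Seh1 (chr18:67774876-67795487 on GRCm38.p6), was at 40.3 CPM in D0 Ctrl, 19.2 in D0 iKO, 33.2 in D3 Ctrl and 11 in D3 iKO. It was 3.01-fold lower in iKO at day 3 (95% interval 2.58 to 3.54). The difference lay in the transcript NM_001039088.1, with an estimated 600.1 counts in D3 Ctrl and 173 in D3 iKO, and NM_028112.2 had 56.3 and 21.0. XM_006526278.1 had 11.7 and 14.3 counts. Esr1, whose ligand-binding part is used in inducible Cre proteins, had 2 counts in D3 Ctrl and 123 CPM in D3 iKO, 1231-fold more (341 to 10174). Almost all of it was assigned to XM_006512435.2, with an estimated 2309 counts in D3 iKO and 0 in D3 Ctrl, while NM_001302531.1 had 1.53 and 2 counts. Both libraries labelled iKO thus had lower Seh1l and high Esr1 reads.

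A gene was called higher or lower where CPM + 1 differed by a factor of 2 or more, that is by 1 or more on the log2(CPM + 1) scale, which understates the change of low genes. By this rule 820 genes (6.35% of those kept) were higher in iKO at day 3 and 625 (4.84%) were lower, while 11462 were neither. The counts of called genes in each list below are to be read beside these shares. The median log2 difference over all kept genes was -0.02, and 90% of genes lay between -0.98 and 1.11. At least 4-fold differences were seen for 115 higher and 132 lower genes, and at least 8-fold differences for 12 higher and 28 lower genes, so the larger differences were more often toward lower levels. With genes ranked by mean CPM and split into 5 classes of equal size, 11.2% were higher and 7.90% lower in the class of lowest mean, against 4.73% and 3.02% in the class of highest mean. Of the 820 higher genes, 158 were also higher in iKO at day 0 and 0 were lower. Of the 625 lower genes, 18 were also lower at day 0 and 7 were higher. Among the 11462 genes that were neither at day 3, 146 were higher at day 0 and 16 were lower. In the authors' deposited table of the same comparison, 760 of the 820 higher genes and 624 of the 625 lower genes were held in the same direction.

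**Figure D1:**
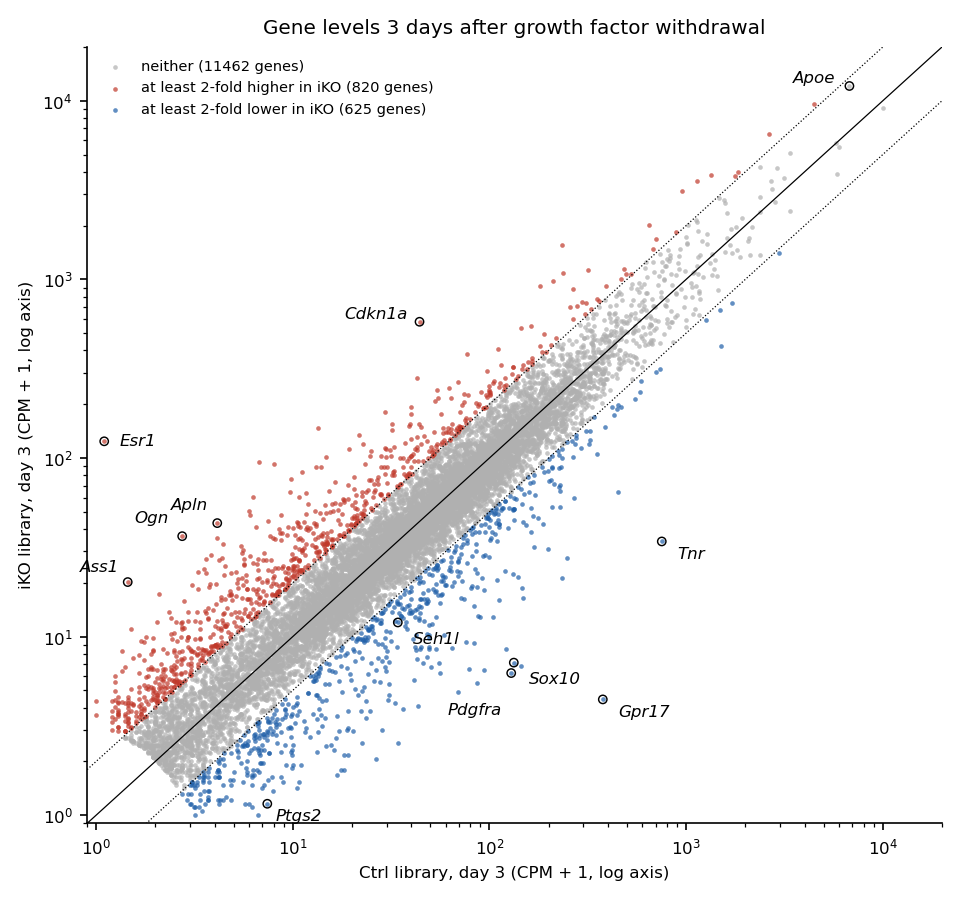
Level of each of the 12907 kept genes in the D3 Ctrl library (x axis) and the D3 iKO library (y axis), both as CPM + 1 on log axes. Red points are the 820 genes called higher in iKO, blue points the 625 called lower, grey points the 11462 that were neither, and dotted lines mark a 2-fold difference. The most distant labelled genes below the diagonal are of the oligodendrocyte lineage, led by Gpr17, and those above it include the p53 target Cdkn1a.

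The 15 genes furthest above the diagonal, apart from Esr1, were of mixed function. Ass1, the arginine-making enzyme argininosuccinate synthase, was at 0.448 CPM in D3 Ctrl and 19.2 CPM in D3 iKO, 42.9-fold higher (22.3 to 94.5). Klhdc7a was at 5.77 and 93.8 CPM, 16.3-fold higher (13.5 to 19.8). Ogn, a small leucine-rich matrix proteoglycan, was at 1.74 and 35.5 CPM, 20.4-fold higher (14.5 to 29.5). At day 3 these 3 were close to absent or low in Ctrl and plainly expressed in iKO. They were also called higher in iKO at day 0, with Ass1 at 2.95 and 41.9 CPM, Klhdc7a at 13.1 and 40.7 CPM, and Ogn at 0.590 and 3.12 CPM. Apln, the ligand of the apelin receptor, was at 3.13 and 42.2 CPM at day 3, 13.5-fold higher (10.4 to 17.7), but at 278 and 235 CPM at day 0. Sod3, the extracellular superoxide dismutase, was at 5.27 and 59.3 CPM (11.2-fold, 9.20 to 13.9), and Piezo1, a mechanically gated cation channel, at 10.1 and 82.4 CPM (8.16-fold, 7.05 to 9.50). At day 0 Sod3 was at 6.34 and 20.8 CPM and Piezo1 at 58.2 and 96.9 CPM, so the iKO level was above the Ctrl level on both days.

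Many targets of p53 were higher in iKO at day 3. Of 17 kept targets in cell death, 11 were higher and 0 lower (median log2 difference 1.13), and of 29 kept targets in arrest, repair and metabolism, 14 were higher and 0 lower (median 0.94). The day 0 medians of the same lists were 0.55 and 0.57. The gene of p53 itself, Trp53, was at 81.5 CPM in D3 Ctrl and 67.4 CPM in D3 iKO, 1.21-fold lower (1.12 to 1.30), which is within the 2-fold threshold.

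The death targets span the receptor and mitochondrial routes. Fas, a death receptor, was at 2.54 CPM in D3 Ctrl and 23 CPM in D3 iKO, 9.05-fold higher (6.76 to 12.3), against 4.62 and 22.5 CPM at day 0. Pmaip1, which encodes the BH3-only protein Noxa, was at 5.02 and 49.7 CPM at day 3 (9.90-fold higher, interval 8.05 to 12.3) and at 24.2 and 67.7 CPM at day 0. Bbc3, which encodes the BH3-only protein Puma, was at 20.0 and 61.0 CPM, 3.04-fold higher (2.71 to 3.41). At day 0 Bbc3 was at 21.4 and 50.8 CPM, so that for these 3 death genes the Ctrl level lay below the iKO level on both days. Bax, the pore-forming effector of the mitochondrial route, was at 74.0 and 163 CPM at day 3 (2.21-fold higher, interval 2.07 to 2.35), after 222 and 261 CPM at day 0. Pidd1, a scaffold for caspase activation, was at 7.76 and 47.2 CPM at day 3 (6.09-fold higher, interval 5.13 to 7.26) and at 60.3 and 118 CPM at day 0. Steap3, a metalloreductase, was at 1.39 and 11.7 CPM, 8.37-fold higher (5.64 to 12.9).

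Among the arrest and metabolic targets, Cdkn1a, which encodes the cyclin-dependent kinase inhibitor p21 (chr17:29090979-29100722), was at 513 CPM in D0 Ctrl, 926 in D0 iKO, 43.1 in D3 Ctrl and 578 in D3 iKO. At day 3 it was 13.4-fold higher (12.5 to 14.4). Its level thus dropped steeply in Ctrl after withdrawal and much less in iKO. Ddit4l, an inhibitor of mTORC1 signalling, showed 83.7, 116, 12.5 and 147 CPM in the same order, 11.8-fold higher at day 3 (10.3 to 13.4). Sesn2, a sestrin that binds GATOR2, was at 38.6 and 153 CPM at day 3 (3.97-fold higher, interval 3.67 to 4.30) and at 67.5 and 161 CPM at day 0. Dcxr, a dicarbonyl reductase, was at 12.1 and 87.5 CPM, 7.21-fold higher (6.30 to 8.28). Gdf15, a stress-induced secreted factor, was at 0.398 and 5.72 CPM, 14.4-fold higher (7.05 to 34.2).

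Genes that act back on p53 did not move as a block. Of 13 kept, 3 were higher and 0 lower, and the median was -0.03, whose sign differed between scalings. Ccng1, cyclin G1, was at 179 CPM in D3 Ctrl and 921 CPM in D3 iKO, 5.14-fold higher (4.96 to 5.33), and at 573 and 1084 CPM at day 0. Mdm2, the ubiquitin ligase that degrades p53, was at 69.6 and 148 CPM at day 3 (2.13-fold higher, interval 2.0 to 2.28) and at 106 and 191 CPM at day 0. Trp53inp1, a cofactor of p53 in death and autophagy, was at 130.5 and 322 CPM, 2.47-fold higher.

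The start regions of these genes were searched for the p53 consensus, a pair of 10-base units with no spacer, on both strands and with at most 2 mismatches. The windows, from RefSeq on GRCm38.p6, run from 250 bases before to 50 bases after each annotated start. A match was found for 2 of 34 windows of the arrest list, 0 of 20 of the death list and 1 of 14 of the regulator list, against 0.798% of all 32851 windows. The lists were drawn up from known targets and regulators of p53, so these shares describe their make-up. The 3 matches are shown, 5′ to 3′ on the gene's strand, because Cdkn1a and Ccng1 were among the highest members of their lists. Capitals mark the match. It begins 51 bases before the start for Cdkn1a, 195 for Ccng1 and 117 for Rps27l, and a match describes the letters, not a bound site.
Cdkn1a, chr17:29090898-29090977, plus strand: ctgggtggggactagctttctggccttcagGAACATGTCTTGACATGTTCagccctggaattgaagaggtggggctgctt
Ccng1, chr11:40755432-40755511, minus strand: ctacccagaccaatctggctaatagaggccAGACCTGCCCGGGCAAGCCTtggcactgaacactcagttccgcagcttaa
Rps27l, chr9:66946266-66946345, plus strand: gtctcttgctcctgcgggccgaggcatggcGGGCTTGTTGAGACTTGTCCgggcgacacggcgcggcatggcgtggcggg
Rps27l, a ribosomal protein paralog, was named here for its match, after its values were seen. It was at 20.2 CPM in D3 Ctrl and 46.9 CPM in D3 iKO, 2.32-fold higher (2.06 to 2.62), and at 107 and 115 CPM at day 0.

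**Figure D2:**
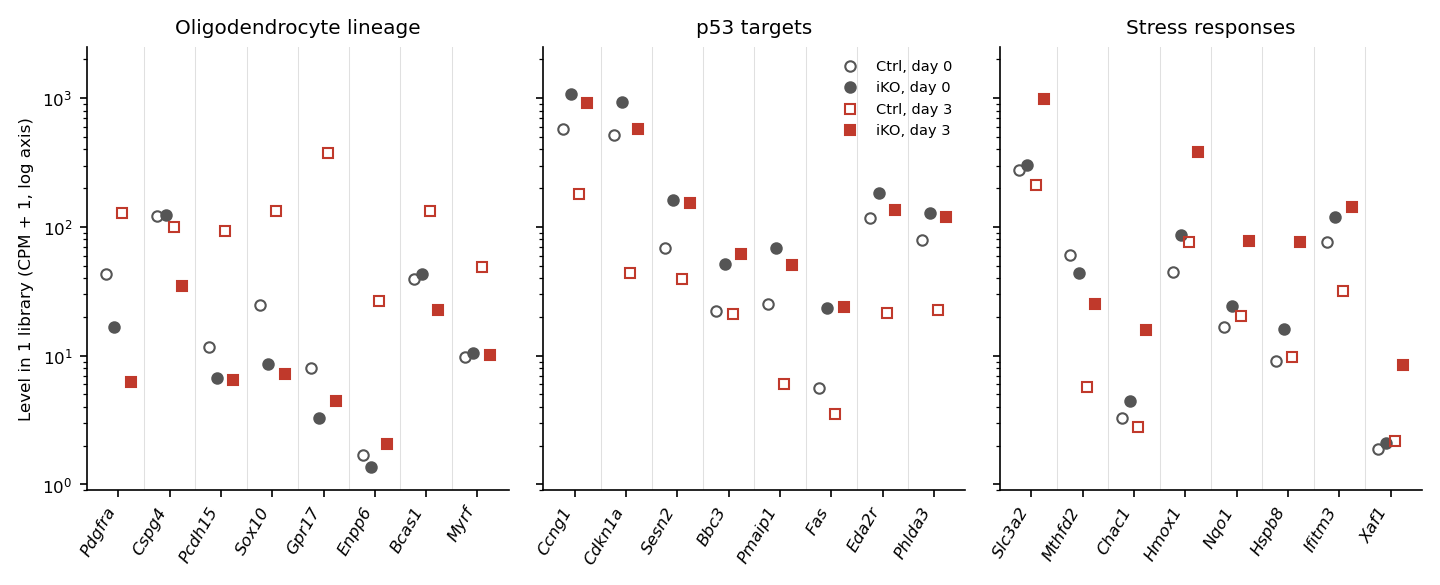
CPM + 1 (y axis, log scale) of 8 genes each of the oligodendrocyte lineage, of the p53 targets and of stress responses in the D0 Ctrl, D0 iKO, D3 Ctrl and D3 iKO libraries (x axis), 1 point a library and gene. Some of the genes were chosen after their values were seen. The oligodendrocyte genes shown, Cspg4 apart, are highest in D3 Ctrl, the p53 targets shown are lowest in D3 Ctrl, and the stress genes shown, Mthfd2 apart, are highest in D3 iKO.

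Many genes of the oligodendrocyte lineage were lower in iKO at day 3. Of 19 kept genes of oligodendrocyte precursors, 14 were lower and 0 higher (median -1.54), and of 23 kept genes of myelin and maturing oligodendrocytes, 13 were lower and 2 higher (median -1.19). At day 0 the medians were -0.30 and 0.02. In bulk libraries, fewer cells of a type and less RNA per cell cannot be told apart. Some genes of the lineage lay within the threshold: Olig1, a transcription factor, was at 2814 CPM in D3 Ctrl and 2718 CPM in D3 iKO, and Olig2 at 845 and 578 CPM.

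The lineage transcription factors differed among themselves. Of 14 kept, 5 were lower and 0 higher (median -0.55). Sox10, which drives oligodendrocyte differentiation (chr15:79154913-79164490), was at 132 CPM in D3 Ctrl and 6.15 CPM in D3 iKO, 21.4-fold lower. Myrf, a membrane-bound activator of myelin genes, was at 48.1 and 9.22 CPM, 5.22-fold lower (4.44 to 6.17). Sox8 was at 582 and 234 CPM (2.49-fold lower), Sox6 at 319 and 119 CPM (2.67-fold lower), and Nkx2-2 at 54.0 and 36.5 CPM, the last within the threshold. The early factors Olig1, Olig2 and Nkx2-2 thus lay nearer to their Ctrl level than Sox10 and Myrf.

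Receptors and surface proteins of precursors were the most reduced group. Gpr17, a receptor of committed precursors (chr18:31942999-31949890), was at 376 CPM in D3 Ctrl and 3.45 CPM in D3 iKO, 109-fold lower (85.5 to 141), and at 7.08 and 2.29 CPM at day 0. Its neighbour Lims2, some of whose reads the counting could share with it, was at 33.4 and 1.54 CPM, 21.7-fold lower (15 to 32.7). Pdgfra, the receptor for the precursor mitogen PDGF (chr5:75151322-75198206), was at 128 and 5.25 CPM, 24.4-fold lower. In each of these 3 the level was highest in D3 Ctrl, and at day 0 Pdgfra was at 41.8 and 15.8 CPM. Pcdh15, a protocadherin, was at 92.3 and 5.51 CPM, 16.7-fold lower (13.7 to 20.6), Kit, the stem cell factor receptor, at 68.6 and 3.92 CPM, 17.5-fold lower (13.8 to 22.4), and C1ql1, a secreted C1q-like protein, at 42.3 and 3.07 CPM, 13.8-fold lower (10.5 to 18.3). Cspg4, the NG2 proteoglycan, differed less: it was at 99.7 and 33.6 CPM at day 3 (2.97-fold lower, interval 2.72 to 3.25) and at 121 and 123 CPM at day 0. NG2 is shared with mural cells, and a list of 12 fibroblast and mural markers, made up mostly of Cspg4, summed to 117 CPM in D3 Ctrl and 47.0 CPM in D3 iKO. Pdgfrb, a receptor that defines mural cells, was at 7.76 CPM in D3 Ctrl and 1.27 CPM in D3 iKO, 6.10-fold lower (3.95 to 9.81), in the same direction as Cspg4. The other 2 kept markers of the list, Acta2 and Tagln, were not called, at 4.78 and 6.26 CPM and at 2.04 and 2.17 CPM. Rgs5, a mural marker below the minimum level, was at 0.398 and 1.59 CPM. The mural part in the difference was not tested. The fibroblast genes Col1a1 and Lum had 14 and 0 counts in D3 Ctrl and 8 and 0 in D3 iKO.

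Genes of later stages were also lower. Enpp6, a choline phosphodiesterase of newly formed oligodendrocytes, was at 25.4 CPM in D3 Ctrl and 1.06 CPM in D3 iKO, 23.9-fold lower (15.3 to 39.5). Fa2h and Ugt8a, enzymes of the galactolipids of myelin, were at 17.2 and 0.795 CPM (21.6-fold lower, 12.9 to 39.1) and at 18 and 2.07 CPM (8.71-fold lower). Other myelin genes were less reduced than these. Bcas1 was at 131 and 21.5 CPM, 6.10-fold lower (5.49 to 6.79), and Mbp, myelin basic protein, at 97.1 and 45.3 CPM, 2.15-fold lower. At day 0 Bcas1 was at 38.3 and 41.9 CPM, so its difference between genotypes was small before withdrawal. The 2 members of the myelin list that were higher were Gpr37, a receptor, at 4.87 and 17.5 CPM (3.59-fold), and Nfasc, a node and paranode adhesion protein with glial and neuronal isoforms, at 156 and 345 CPM (2.22-fold).

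Other genes had differences of similar size. Tnr, the matrix glycoprotein tenascin-R, was at 751 CPM in D3 Ctrl and 33.1 CPM in D3 iKO, 22.7-fold lower. Grik3, a kainate receptor subunit, was at 144 and 5.83 CPM, 24.7-fold lower (20.4 to 30.2), and Plxnb3, a semaphorin receptor counted in the myelin list above, at 85.1 and 4.51 CPM, 18.9-fold lower (15.2 to 23.8). Vxn was at 121 and 7.47 CPM, 16.1-fold lower (13.6 to 19.2), and Plppr1, a lipid phosphatase-related membrane protein, at 77.9 and 5.57 CPM, 14.0-fold lower (11.5 to 17.2). Each of these was at least 70 CPM in D3 Ctrl and under 40 CPM in D3 iKO.

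**Figure D3:**
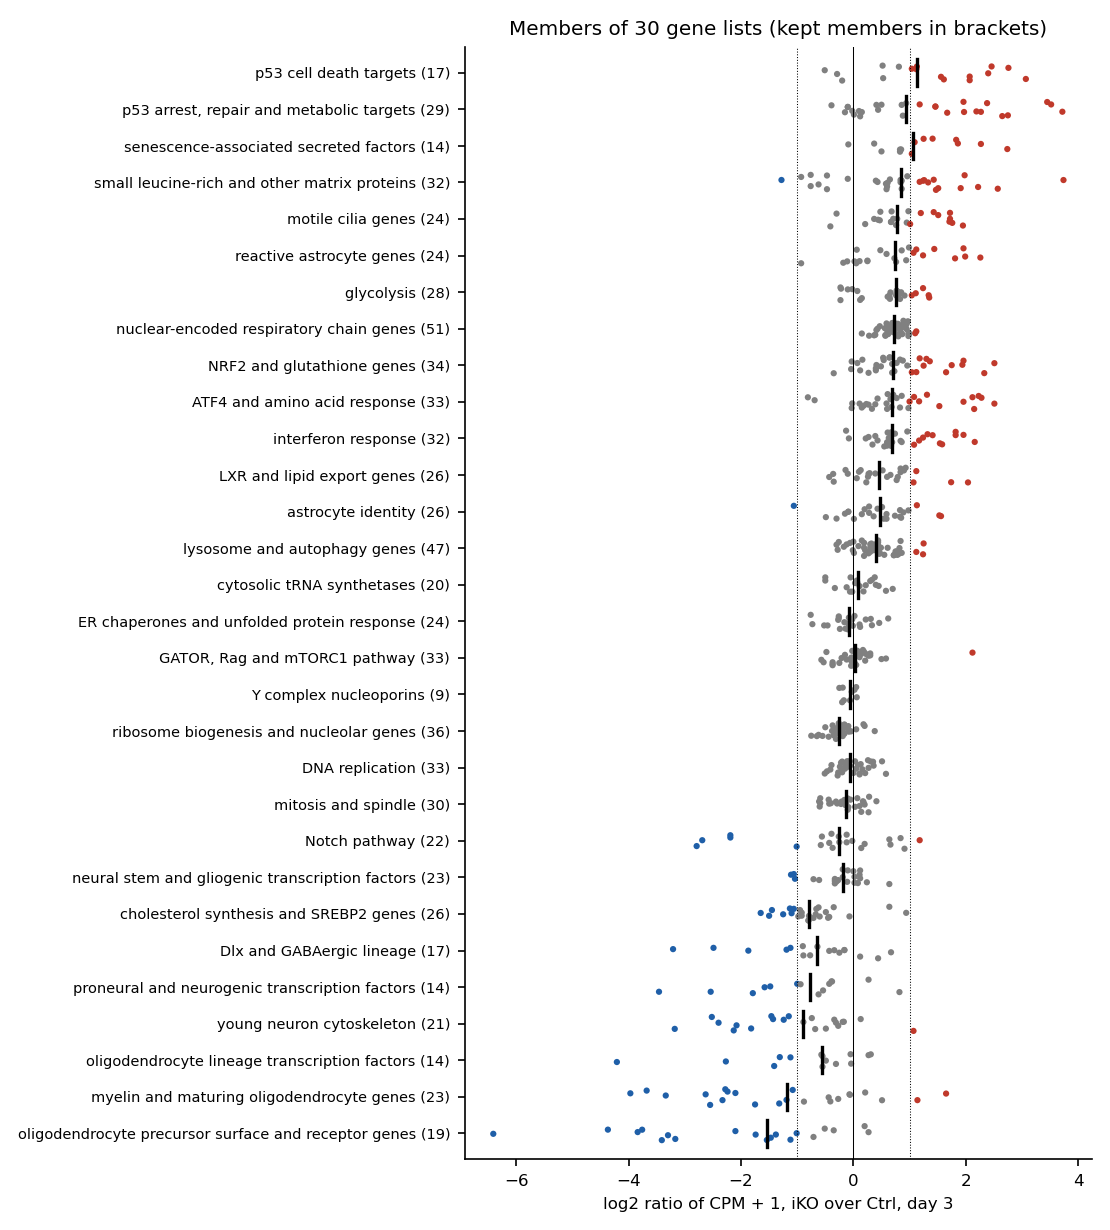
Log2 difference of CPM + 1 between D3 iKO and D3 Ctrl (x axis) for the kept members of 30 gene lists (y axis), 1 point a gene, with a black bar at each list's median and dotted lines at a 2-fold difference either way. The lists of oligodendrocyte precursors and myelin lie furthest to the left, with medians of -1.54 and -1.19, and p53 death targets lie to the right with a median of 1.13.

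Genes of neuronal differentiation were lower in smaller numbers. Of 14 kept proneural and neurogenic factors, 5 were lower and 0 higher (median -0.78, and -0.86 to -0.38 over the settings), of 21 genes of young neurons 10 were lower and 1 higher (median -0.89), and of 17 genes of the Dlx and GABA programme 5 were lower and 0 higher (median -0.64, and -0.72 to -0.42 over the settings). Myt1, a zinc finger factor of neuronal and oligodendrocyte precursors, was at 233 CPM in D3 Ctrl and 20.4 CPM in D3 iKO, 11.5-fold lower (10.3 to 12.7). Bcl11b, a factor of deep-layer neurons, was at 16.2 and 1.96 CPM (8.27-fold lower), and Neurog2, a proneural factor, at 2.39 and 0.212 CPM (11.3-fold lower, 4.12 to 43.0).

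Cytoskeletal genes of young neurons did not all differ in 1 direction. Tubb3, the neuronal beta-tubulin, was at 71.0 CPM in D3 Ctrl and 15.5 CPM in D3 iKO, 4.59-fold lower, yet at 11.8 and 20.6 CPM at day 0. Basp1, a growth cone protein, was at 168 and 30.9 CPM, 5.42-fold lower. Tubb2a, another tubulin, was at 304 and 642 CPM, 2.11-fold higher, and was the single young neuron gene called higher. In the ventral programme Dlx2 was at 48.2 and 7.79 CPM (6.19-fold lower) and Gsx2 at 3.23 and 0.159 CPM (20.3-fold lower, 6.66 to 101). The GABA-synthesising enzymes Gad2, at 5.37 and 1.80 CPM (2.98-fold lower), and Gad1, at 52.5 and 41.2 CPM, had been higher in iKO at day 0, at 1.92 and 4.59 CPM and at 13.1 and 33.1 CPM.

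Genes of excitability were mixed. Of 30 kept glutamate receptor genes 7 were lower and 4 higher, and of 26 kept ion channel genes 5 were lower and 6 higher. The AMPA receptor subunits Gria3 and Gria1 were at 28.6 and 113 CPM (3.95-fold higher, 3.60 to 4.34) and at 55.8 and 176 CPM (3.15-fold higher), while Neto1, an auxiliary kainate receptor subunit, was at 108 and 19.7 CPM (5.46-fold lower), and Grin1, the obligatory NMDA receptor subunit, at 13.1 and 2.17 CPM (6.04-fold lower). The potassium channel genes Kcnk1, at 38.8 and 176 CPM (4.52-fold), and Kcnc1, at 143 and 536 CPM (3.75-fold), were higher. Of 11 kept granin and dense-core vesicle genes, 4 were lower and 0 higher. The prohormone convertase Pcsk2 was at 7.96 and 0.530 CPM, 15-fold lower.

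Astrocyte genes differed less than those of the other lineages. Of 26 kept genes of astrocyte identity 3 were higher and 1 lower (median 0.47, and 0.41 at day 0). The glutamate transporter Slc1a3 was at 5788 CPM in D3 Ctrl and 5834 CPM in D3 iKO, and Gfap, the intermediate filament of astrocytes, at 160.2 and 194 CPM. Sparcl1, the secreted synapse organiser hevin, was at 1331 and 3840.3 CPM, 2.89-fold higher, and Agt, angiotensinogen, at 5.27 and 17.4 CPM, 3.31-fold higher. Slc6a11, a GABA transporter, was at 2949.7 and 1411 CPM, 2.09-fold lower, and Aldh1l1, a folate enzyme used as an astrocyte marker, at 797 and 567 CPM, within the threshold. Over the list 20 genes lay above 0 and 6 below, and the summed level was 29935 CPM in D3 Ctrl and 39507 CPM in D3 iKO. Apoe, the main lipid carrier made by astrocytes, was at 138 CPM in D0 Ctrl, 656 in D0 iKO, 6764 in D3 Ctrl and 12097 in D3 iKO, 1.79-fold higher at day 3, within the threshold.

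A minority of genes linked to reactive astrocytes and to motile cilia were higher. Reactive genes had 8 of 24 higher and 0 lower (median 0.74, and 0.33 to 0.97 over the alternative settings). Of 24 kept cilium genes 9 were higher and 0 lower (median 0.77, and 0.38 to 1.15 over the settings), with a median of 0.53 at day 0. Steap4, a metalloreductase of inflamed tissue, was at 0.249 and 3.98 CPM, 16-fold higher (6.55 to 50.7), and Cd109, a surface protein that binds TGF-beta, at 6.62 and 35.5 CPM, 5.36-fold higher. Drc1, part of the regulatory complex of the ciliary axoneme, was at 1.89 and 8.53 CPM, 4.52-fold higher (3.15 to 6.61), and was at 0.541 and 2.11 CPM at day 0.

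Genes of the extracellular matrix were higher in part. Matrix glycoproteins and proteoglycans had 12 of 32 higher and 1 lower (median 0.84, and 0.48 to 0.93 over the settings), and of 21 kept collagens 4 were higher and 3 lower. Fmod, fibromodulin, was at 1.04 and 11.1 CPM (10.7-fold higher), Podn, podocan, at 1.94 and 12.7 CPM (6.53-fold higher), and Fn1, fibronectin, at 10.7 and 32.2 CPM (3.01-fold higher). Together with Ogn, these are proteins also made by fibroblasts, whose markers Col1a1 and Lum were at the counts given above. Smoc1, a calcium-binding matrix protein, was the 1 lower member, at 467 and 192 CPM (2.43-fold lower). Ccn2, a matricellular target of YAP and TGF-beta, was at 2.64 and 21.7 CPM (8.22-fold higher), and Mmp2, a gelatinase, at 0.199 and 3.34 CPM (16.8-fold higher, 6.24 to 63.5).

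Those genes of secreted factors that passed the minimum level were often higher. Of 32 measured genes of the senescence-linked secretory programme 14 were kept. Of these, 8 were higher and 0 lower (median 1.07, and 0.41 with no minimum level). Of 26 measured neuropeptide and neurotrophic genes 9 were kept, of which 5 were higher and 0 lower. Their median of 1.64 ranged from 0.11 to 2.07 over the settings, while the summed level of the list was 2139 CPM in D3 Ctrl and 1457 CPM in D3 iKO. The minimum was set on the mean of both libraries, so a gene near 0 in Ctrl was kept only where it was higher in iKO. Lif, a cytokine of the IL-6 family, was at 0.298 and 3.60 CPM, 12.1-fold higher (5.27 to 34.1), and Bdnf, a neurotrophin, at 1.64 and 7.21 CPM, 4.39-fold higher. The IGF-binding proteins Igfbp4, at 24.1 and 108 CPM (4.50-fold), and Igfbp2, at 644 and 2006 CPM (3.11-fold), were also higher. Cdkn2a, a cyclin-dependent kinase inhibitor locus tied to senescence, was at 5.27 and 13.3 CPM, 2.51-fold higher. Lmnb1, lamin B1, was at 80.7 and 27.1 CPM at day 3, 2.98-fold lower, and at 478 and 257 CPM at day 0, while Lmna, the A-type lamin gene, was at 12.3 and 28.6 CPM, 2.32-fold higher.

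Stress responses were higher along some branches and not others. Of 33 kept targets of ATF4, the effector of the integrated stress response, 10 were higher and 0 lower (median 0.68, against -0.13 at day 0). Of 24 kept genes of the unfolded protein response of the endoplasmic reticulum, which shares the upstream kinase PERK with it, 0 were higher and 0 lower (median -0.08). Slc3a2, the heavy chain of amino acid exchangers, was at 209 CPM in D3 Ctrl and 982 CPM in D3 iKO, 4.70-fold higher (4.55 to 4.87), and at 275 and 303 CPM at day 0. Mthfd2, a mitochondrial folate enzyme, was at 4.68 and 24.2 CPM at day 3 (5.18-fold higher, interval 4.14 to 6.54) and at 59.8 and 43.1 CPM at day 0. Eif4ebp1, an inhibitor of cap-dependent translation, was at 8.46 and 40.1 CPM, 4.75-fold higher (4.01 to 5.64). Trib3, a pseudokinase target, was at 0.398 and 1.96 CPM, 4.93-fold higher (2.26 to 12.3). These 4 were higher in iKO at day 3, and Slc3a2 and Mthfd2 lay within 2-fold at day 0. Atf4 itself was at 139 and 221 CPM (1.58-fold) and Asns, asparagine synthetase, at 19 and 38.4 CPM (2.03-fold, 0.98 on the log2 scale), both within the threshold. In the endoplasmic reticulum branch the chaperone gene Hspa5 was at 324 and 294 CPM and Xbp1 at 32.4 and 19.1 CPM. Of 20 kept tRNA synthetases, many of them ATF4 targets, 0 were higher and 0 lower.

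The core of the C/EBP-ATF element, TGATGNAA, was found on either strand in 9 of 36 start windows of the ATF4 list (25%), against 3.97% of all windows. These windows covered 28 of the 33 kept genes, and the list was drawn up from known targets, so the share describes the list's make-up. Windows of 4 genes are shown because they include an amino acid transporter, a pair of enzymes and a small chromatin protein, with the match in capitals. Nupr1 and Slc7a11 were named after their values were seen.
Chac1, chr2:119351019-119351086, plus strand: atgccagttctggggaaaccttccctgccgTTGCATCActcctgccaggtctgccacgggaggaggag
Nupr1, chr7:126625543-126625610, minus strand: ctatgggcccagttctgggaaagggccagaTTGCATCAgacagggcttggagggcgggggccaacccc
Asns, chr6:7693210-7693262, minus strand: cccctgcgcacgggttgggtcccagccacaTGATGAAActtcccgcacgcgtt
Slc7a11, chr3:50443623-50443709, minus strand: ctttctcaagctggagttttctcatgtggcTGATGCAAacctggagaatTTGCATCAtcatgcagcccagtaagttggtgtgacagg
Slc7a11, which encodes the cystine transporter xCT, holds 2 matches in opposite orientation and was at 59.1 CPM in D3 Ctrl and 106 CPM in D3 iKO, 1.79-fold higher (1.66 to 1.92), within the threshold. Nupr1, a small stress-induced chromatin protein, was at 0.298 and 2.76 CPM, 9.24-fold higher (3.97 to 26.3).

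In a list of glutathione genes and targets of NRF2, the factor that responds to oxidants, 12 of 34 kept were higher, 0 lower and 22 neither. The median was 0.71, against 0.16 at day 0. The highest member was Chac1, which is also in the ATF4 list, at 1.79 CPM in D3 Ctrl and 14.9 CPM in D3 iKO, 8.35-fold higher (5.89 to 12.2). Hmox1, heme oxygenase, was at 75.5 CPM in D3 Ctrl and 383 CPM in D3 iKO, 5.07-fold higher (4.80 to 5.36), and at 43.4 and 85.2 CPM at day 0. Nqo1, a quinone reductase, was at 19.4 and 77.3 CPM, 3.98-fold higher, and Osgin1, an oxidative stress-induced growth inhibitor, at 5.57 and 24.6 CPM, 4.42-fold higher. Of 17 kept heat shock genes 2 were higher and 0 lower, both of them small heat shock proteins: Hspb8 was at 8.75 and 75 CPM (8.56-fold, 7.32 to 10.1) and Cryab at 109 and 406 CPM (3.72-fold). The large chaperone families were thus not among those called.

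Interferon-stimulated genes were higher as a minority of the list. There were 11 higher and 0 lower among 32 kept (median 0.69, against 0.27 at day 0), and of 19 kept genes of MHC class I and antigen processing 3 were higher and 0 lower (median 0.38). Xaf1, a pro-apoptotic interferon target, was at 1.19 CPM in D3 Ctrl and 7.53 CPM in D3 iKO, 6.31-fold higher (4.07 to 10.2). Ifitm3, a membrane protein that restricts virus entry, was at 30.9 and 142 CPM, 4.59-fold higher, Gbp3, a guanylate-binding protein, at 4.28 and 17.7 CPM, 4.13-fold higher, and Tap1, the peptide transporter of class I loading, at 12.1 and 40.8 CPM. Isg15, a ubiquitin-like modifier, was at 0.945 and 1.27 CPM, within the threshold. The microglial markers, cells that also carry this programme, summed to the levels given above.

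The core of the interferon element, TTCNNTTTC, was found on either strand in 16 of 28 windows of this list (57.1%), against 8.56% of all windows, and the windows covered 24 of the 32 kept genes. The list is made up of interferon-stimulated genes, so the share describes its make-up. Windows of Ifit3, Gbp3 and Bst2 are shown as examples that hold the core 2 or 3 times, with matches in capitals and overlapping matches run together. All 3 were called higher, but other windows of the list hold the core as often. Among them are those of Isg15 (3 matches, log2 difference 0.22, within the threshold) and Ifitm3 (2 matches, 2.16). Bst2 was named after its values were seen.
Ifit3, chr19:34583344-34583465, plus strand: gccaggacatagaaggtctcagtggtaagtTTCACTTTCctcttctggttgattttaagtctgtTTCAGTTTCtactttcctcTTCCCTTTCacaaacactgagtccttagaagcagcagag
Gbp3, chr3:142559970-142560043, plus strand: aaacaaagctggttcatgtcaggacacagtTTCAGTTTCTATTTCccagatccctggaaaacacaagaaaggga
Bst2, chr8:71537558-71537632, minus strand: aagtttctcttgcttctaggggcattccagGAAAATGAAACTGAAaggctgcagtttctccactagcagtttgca
Bst2, the tetherin gene, was at 1.19 CPM in D3 Ctrl and 5.57 CPM in D3 iKO, 4.66-fold higher (2.97 to 7.60), and at 4.72 and 6.65 CPM at day 0.

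**Figure D4:**
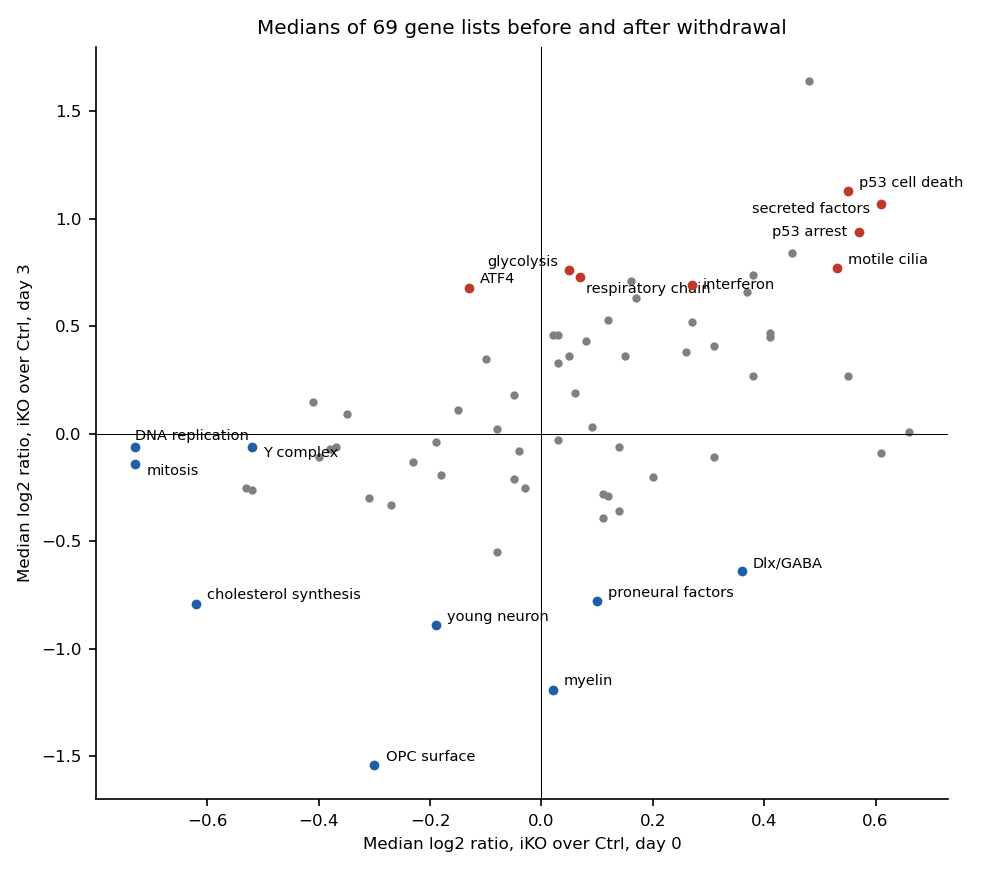
Median log2 difference between iKO and Ctrl at day 0 (x axis) and at day 3 (y axis) for 69 gene lists, 1 point a list, with labelled lists in red (above 0.3 at day 3) or blue (others). Oligodendrocyte precursor genes lie at -0.30 at day 0 and at -1.54 at day 3, mitosis genes lie at -0.73 at day 0 and -0.14 at day 3, and both lists of p53 targets lie above 0 on both days.

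Genes of cholesterol synthesis lay below their Ctrl level on both days, mostly within the threshold. Of 26 kept genes of the list 7 were lower and 0 higher at day 3 (median -0.79, and -0.62 at day 0). Acat2, a thiolase at the entry of the pathway, was at 84.4 CPM in D3 Ctrl and 29.1 CPM in D3 iKO, 2.90-fold lower, and Lss, lanosterol synthase, at 205 and 74.4 CPM, 2.76-fold lower. A pair of regulators of SREBP, the sterol-sensing factor behind these genes, lay on the other side of 0, Scap at 156 and 302 CPM and Insig2 at 16.7 and 26.6 CPM. Genes of lipid export under the oxysterol receptor LXR were higher in part, with 4 of 26 higher and 0 lower (median 0.45). At day 0 the median was 0.41, with 5 higher and 0 lower. Abca1, the cholesterol exporter, was at 353 and 771 CPM at day 3 (2.18-fold) and at 25.8 and 144 CPM at day 0 (5.56-fold). Pltp, a phospholipid transfer protein, was at 23.8 and 101 CPM at day 3 (4.23-fold). The sterol element core CACCCCAC was found on either strand in 2 of 25 windows of the synthesis list (8%), against 2.87% of all windows, for 19 of the 26 genes. The list is made up of genes of this pathway, so the share describes its make-up. Both windows with a match are shown, with the core in capitals.
Hmgcs1, chr13:119690185-119690252, plus strand: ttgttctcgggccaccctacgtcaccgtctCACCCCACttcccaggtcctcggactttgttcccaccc
Acat2, chr17:12960869-12960936, minus strand: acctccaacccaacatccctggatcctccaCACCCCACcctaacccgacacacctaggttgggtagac
Hmgcs1, an early synthase of the pathway, named after its values were seen, was at 1267 CPM in D3 Ctrl and 592 CPM in D3 iKO, 2.14-fold lower (2.09 to 2.19), and at 1297 and 828 CPM at day 0.

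Genes of energy metabolism lay above their Ctrl level at day 3 by less than 2-fold in most cases. Of 28 kept glycolysis and lactate genes 5 were higher and 0 lower (median 0.76, against 0.05 at day 0). Tpi1, triosephosphate isomerase, was at 105 CPM in D3 Ctrl and 268 CPM in D3 iKO, 2.55-fold higher, Slc2a1, the glucose transporter GLUT1, at 84.7 and 201 CPM, 2.37-fold higher, and Slc16a1, a lactate transporter, at 47.4 and 123 CPM, 2.59-fold higher. Pkm, pyruvate kinase, was at 737 and 1382 CPM, within the threshold. All 51 kept nuclear genes of the respiratory chain had a log2 difference above 0, from 0.15 for the complex I subunit Ndufs4 to 1.12, though only 2 passed the threshold. Uqcr10, a complex III subunit, was at 52.3 and 115 CPM (2.20-fold), and Atp5g3, a subunit of the ATP synthase ring, at 146 and 315 CPM (2.16-fold).

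Transcript length moved with the differences. With genes split into 10 equal classes by transcript length, the median log2 difference went from 0.11 in the class of shortest transcripts to -0.15 in the class of longest, while at day 0 it was -0.09 and -0.05 in the same classes. Respiratory chain transcripts are short, with a median of 0.746 kb, and the list's median of 0.73 was 0.64 above that of genes of like length. The same subtraction left 1.06 for either list of p53 targets, -1.59 for oligodendrocyte precursor genes and 0.71 for glycolysis. Cytoplasmic ribosomal protein genes, which are also short, went the other way: 77 of 80 kept had a difference below 0 (median -0.50), and their summed level was 17802 CPM in D3 Ctrl and 12356 CPM in D3 iKO. Rpl34, named after its values were seen, was the 1 called higher, at 3.53 and 23.9 CPM, and its reads may be shared with processed copies. The part of length or RNA quality in these differences was not tested. By genomic span, 13.0% of the 185 genes of at least 500 kb were higher and 22.2% were lower, so long genes were over the background of 6.35% and 4.84% in both directions.

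**Figure D5:**
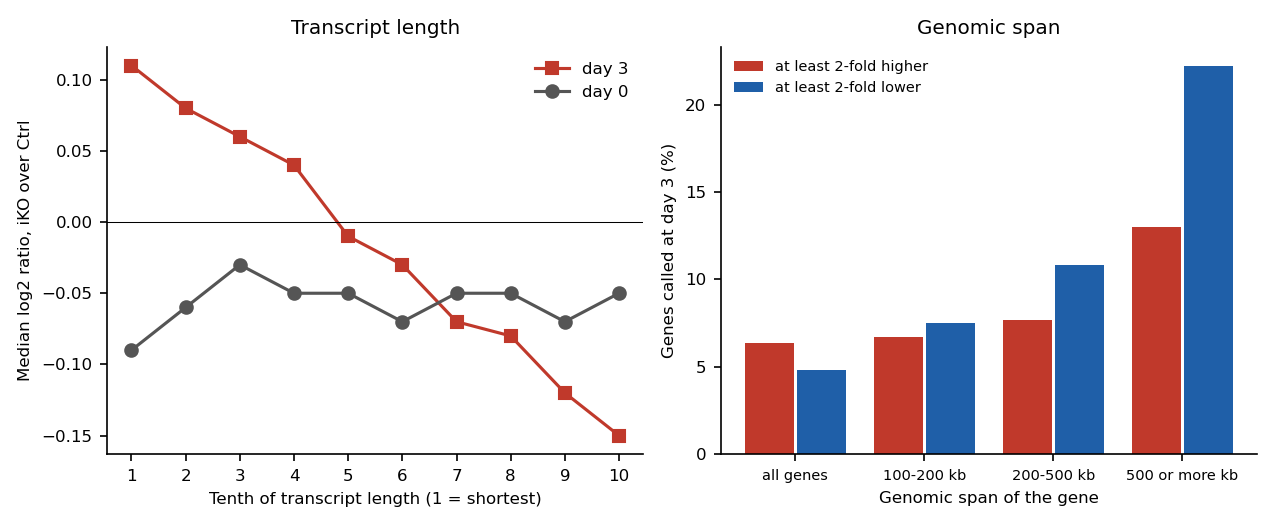
Left, median log2 difference between iKO and Ctrl (y axis) in 10 equal classes of kept genes ordered by transcript length (x axis), at day 0 and day 3. Right, percent of genes called higher (red) or lower (blue) at day 3 (y axis) by genomic span of the gene (x axis), where the class of at least 500 kb has the highest share in both directions, 13.0% and 22.2%.

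Growth factor signalling differed gene by gene. Feedback inhibitors and targets of ERK, the kinase downstream of EGF and bFGF, had 3 of 17 higher and 3 lower (median 0.46, against 0.02 at day 0). Dusp4, a nuclear ERK phosphatase, was at 10.4 CPM in D3 Ctrl and 42.9 CPM in D3 iKO, 4.13-fold higher, and Spry1, a Sprouty inhibitor, at 51.5 and 139 CPM, 2.69-fold higher, while Il17rd, another inhibitor of FGF signalling, was at 64.9 and 19.1 CPM, 3.40-fold lower. Of 19 kept members and receptors of the EGF and FGF families 3 were higher and 4 lower. Among ligands, Hbegf, which activates the EGF receptor, was at 27.2 and 101 CPM, 3.71-fold higher, and Nrg1, a neuregulin, at 10.7 and 62.4 CPM, 5.83-fold higher (5.04 to 6.78). Among receptors Egfr was at 435 and 427 CPM, and Erbb4, a neuregulin receptor, at 227 and 64.6 CPM, 3.52-fold lower. Also called lower were Fgf13, an FGF family member, with a log2 difference of -1.32, and Tgfa, another ligand of the EGF receptor, with -1.12. Immediate early genes had 6 of 16 higher and 1 lower, among the former Klf4, at 2.24 and 12.8 CPM (5.73-fold), and Junb, at 2.69 and 13.4 CPM.

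In the Notch pathway 5 of 22 kept genes were lower and 1 higher (median -0.25). The effector Hes5, a repressor that holds progenitors, was at 111 CPM in D3 Ctrl and 15.1 CPM in D3 iKO, 7.32-fold lower (6.46 to 8.31). Nrarp, a feedback inhibitor, was at 85.7 and 18 CPM (4.77-fold lower) and Mfng, a glycosyltransferase that tunes ligand choice, at 24.9 and 4.66 CPM (5.33-fold lower). The receptor Notch1 was at 547 and 365 CPM and the effector Hes1 at 16.7 and 26.7 CPM, both within the threshold, and the ligand Jag1 was higher, at 13.9 and 32.8 CPM (2.36-fold). In the BMP pathway 3 of 21 were higher and 1 lower, against 6.35% and 4.84% of all kept genes. Id1, a direct target, was at 18.2 and 69.3 CPM (3.82-fold higher, 3.40 to 4.30). The ligand Bmp4, also made by committed oligodendrocyte precursors, was at 6.17 and 0.477 CPM (12.9-fold lower, 6.59 to 28.9). Guidance cues were mixed, with 4 of 29 kept semaphorins, plexins and related genes higher and 6 lower. The secreted Sema3c was at 2.29 and 21.9 CPM, 9.59-fold higher (7.06 to 13.3).

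Genes of cell division lay within the threshold at day 3, while some regulators of the cycle did not. Of 30 kept mitosis genes, 33 replication genes and 31 DNA repair genes, 0 were higher and 0 lower, with medians of -0.14, -0.06 and -0.26, against -0.73, -0.73 and -0.52 at day 0. Mki67, a marker of cycling cells, was at 959 CPM in D0 Ctrl, 533 in D0 iKO, 58.7 in D3 Ctrl and 43.0 in D3 iKO. Levels in both genotypes were thus far lower after withdrawal. The G1 cyclins Ccnd2, at 315 and 1127 CPM (3.58-fold), and Ccnd1, at 154 and 312 CPM (2.02-fold), were higher in iKO at day 3. Of 7 kept CDK inhibitors 2 were higher, Cdkn1a and Cdkn2a, given above, and 1 was lower: Cdkn1c, which encodes p57, was at 49.2 and 5.72 CPM, 8.60-fold lower (7.05 to 10.6). Mycn, a Myc family factor, was at 2.39 and 0.318 CPM, 7.51-fold lower (3.21 to 21.5), Mycl at 148 and 61.5 CPM, and Myc at 80.5 and 48.9 CPM.

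Genes of the complexes that hold Seh1 did not follow it at the RNA level. Of 9 kept genes of the Y complex other than Seh1l, 0 were higher and 0 lower at day 3 (median -0.06, against -0.52 at day 0). Of 20 other nucleoporins 1 was higher, close to the 6.35% of all kept genes. It was Aaas (aladin), at 17.9 CPM in D3 Ctrl and 41.3 CPM in D3 iKO (2.31-fold, 2.04 to 2.63). The GATOR2 genes Wdr24, Mios, Sec13 and Wdr59 were at 24.8 and 24.1, 34.1 and 23.3, 66.8 and 69.1, and 26.4 and 27.9 CPM, all within the threshold. Of 33 kept genes of GATOR and the mTORC1 pathway 1 was higher and 0 lower, and of 29 nuclear transport genes 0 were higher and 0 lower. Lysosome genes had 3 of 47 higher, close to the 6.35% of all kept genes, and 0 lower (median 0.41), among them Ctsd, cathepsin D, at 482 and 1137 CPM (2.36-fold), and Psap, prosaposin, at 1842 and 3994 CPM (2.17-fold). Of 25 kept Polycomb and DNA methylation genes 2 were lower, a count near the 4.84% of all kept genes. They were Pcgf2, a PRC1 subunit, at 42.7 and 13.8 CPM, and Jarid2, a cofactor of PRC2, with a log2 difference of -1.12. Ezh2, the methyltransferase of PRC2, was at 50.8 and 26.3 CPM, within the threshold.

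Position along the genome was also described. On chromosome 18, which holds Seh1l, 42 of 379 kept genes (11.1%) were lower, and 29 of 321 (9.03%) without the protocadherin clusters there, against 4.84% of all genes. The clustered protocadherins share sequence, and reads may be split among them: of 8 kept alpha genes 5 were lower (median -1.08), of 21 beta genes 6 were lower (median -0.72), and of 22 gamma genes 2 were higher and the median was 0.43. On the X chromosome 13 of 440 genes (2.95%) were higher and 33 (7.50%) lower, against 6.35% and 4.84% of all genes.

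Estimated transcript shares differed for a part of the genes. Among 7891 genes with at least 2 transcripts and 100 counts in both libraries, 1170 transcripts in 740 genes differed by at least 30 percentage points in their share of the gene's counts. Such shares are estimates from reads that several transcripts can hold, and assignment can switch between near-identical models. The transcript NM_183087.4 of Fam189a1 had all of 207 counts in D3 Ctrl and 0 of 116 counts in D3 iKO, and 62.7% and 33.8% at day 0. A transcript of Hspg2, which encodes the basement membrane proteoglycan perlecan, NM_008305.3, had all of 508 counts in D3 Ctrl and close to 0 of 1229 counts in D3 iKO, yet 10.4% and 53.4% at day 0, where the order of the genotypes was the other way round.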

How the data were processed

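Expected counts per transcript were deposited by the authors for 4 libraries, 1 a group. HISAT, Bowtie2, StringTie and the mm10 build are named in the submitters' processing notes, with no versions or roles. A deposited expression value per transcript fits FPKM by its values, although the file headers do not name the unit. The log2 ratio and FDR of the authors' deposited table of the day 3 comparison (1774 genes, 911 above 0 and 863 below 0, largest FDR 0.000959) come from a method that the sources used here do not give, and were used only to count shared genes.

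The counts were summed per gene, scaled by edgeR 4.0.16 TMM factors (R 4.3.3) and divided by library size to give CPM. Genes whose day 3 mean reached 1 CPM, taken over plain library totals, were kept, and a gene was called at a 2-fold ratio of CPM + 1. The mean covers both day 3 libraries, so a gene near 0 in either was kept only where it was higher in the other. With 1 library a side, no dispersion could be estimated and no count model was run. Fold changes are ratios of CPM, and their 95% intervals are exact conditional (Clopper-Pearson) intervals on counts rounded to whole numbers. Where either count was 0, no fold was given and the interval was open at its upper end. The intervals cover counting error only. Gene symbols and positions came from RefSeq on GRCm38.p6 for 17498 genes and from the authors' table for 12, and 111 had none.

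Named genes were drawn from Seh1l and Esr1, the 15 largest ratios in each direction, the key members and the 4 largest ratios in each direction of each of 73 lists, and the 10 transcripts with the largest difference in share. The members and lists were chosen with earlier results of these data known. Alternatives were another pseudocount, another minimum, DESeq2 1.42.0 size factors, TMM on the day 3 libraries, library totals, FPKM, and leaving out ribosomal protein and histone genes. Counts simulated for 12907 genes carried counting error alone, with no spread between cultures. In that setting 95.5% of the exact intervals covered the simulated ratio. The calling rule picked up 131 of 133 simulated 4-fold changes and 19 of 67 simulated 2-fold changes. It picked up 0 of 12707 genes simulated without a change. Spread between cultures could not be estimated without replicates, so the share of false calls in the real libraries was not tested. Python 3.11.15 with numpy 2.4.6, pandas 2.3.3, scipy 1.17.1 and matplotlib 3.10.9 was used. The deposited table of the day 0 comparison was not used here.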

Additional observations from a re-analysis of the deposited data

Results flagged for a closer look

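In 7 genes the difference between iKO and Ctrl lay past 2-fold in opposite directions on the 2 days, higher in iKO at day 0 and lower at day 3. They were 7 of the 625 genes lower at day 3, while 146 of the 11462 that were neither at day 3 were higher at day 0. With 1 library a group, the difference between the days was not tested.

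Scg2, secretogranin II, was at 1.03 CPM in D0 Ctrl and 3.40 in D0 iKO, then at 18 in D3 Ctrl and 1.17 in D3 iKO, a log2 difference of -3.13 at day 3. Chgb, chromogranin B, showed 4.72, 13.3, 32.0 and 11.3 CPM in the same order (-1.42). Rab3c, a small GTPase of secretory vesicles, showed 2.95, 7.25, 9.0 and 0.901 CPM (-2.40). For these genes of dense-core and synaptic vesicles the level in Ctrl was higher at day 3 than at day 0, and the level in iKO was lower.

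Ryr3, a calcium release channel of the endoplasmic reticulum, showed 2.80, 7.20, 49.9 and 10.8 CPM in D0 Ctrl, D0 iKO, D3 Ctrl and D3 iKO (-2.11 at day 3). Iqsec3, an exchange factor at inhibitory synapses, showed 1.13, 4.73, 5.62 and 1.38 CPM (-1.48), and Rgs8, a regulator of G protein signalling, 2.56, 7.48, 4.18 and 1.33 CPM (-1.16). Pcdha10, a clustered protocadherin that shares sequence with its neighbours, showed 0.443, 2.89, 4.82 and 1.01 CPM (-1.54).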

How the results depend on the processing

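Of 820 genes higher and 625 lower in iKO at day 3, a pseudocount of 5 CPM left 430 and 358, and the deposited FPKM values gave 478 and 480, of which 476 and 457 were the same genes. With library totals in place of TMM scaling 692 were higher and 705 lower, so that 49.5% of the calls were higher against 56.7%, and the median over all genes moved from -0.02 to -0.09. FPKM likewise gave 49.9% and a median of -0.08. Every other setting gave counts within 1.5 times of the main ones. The 1170 transcripts with a shifted share came to 354 where at least 500 counts a gene were required and to 245 at a difference of at least 50 percentage points, by construction of the stricter rules. Of 272 named genes called, 80 were no longer called with a pseudocount of 5 CPM, 68 with FPKM and 19 with library totals. None of the 272 changed direction under the 9 alternatives, nor did any list median of at least 1 in size. The other results among the 819 recomputed were not judged by this rule. The median changed sign over the settings for 8 of 70 lists: regulators of p53, cyclins with the RB, E2F and Myc genes, GATOR and mTORC1 genes, granins, the Hedgehog pathway, imprinted genes, complement, and fibroblast and mural markers. No paired analysis was possible because each group held 1 library. Depth limited genes of low level most, and counting intervals do not include the spread between cultures.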

Other observations

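Some gene groups were not described above. Of 9 kept retinoid pathway genes 4 were higher in iKO at day 3 and 0 lower (median 0.63, and 0.22 to 0.64 over the settings): Rarb, a retinoic acid receptor and target, was at 5.62 CPM in D3 Ctrl and 12.7 CPM in D3 iKO (2.26-fold, 1.80 to 2.86). Of 19 kept circadian clock genes 4 were higher and 1 lower. Dbp, an output factor of the clock, was at 40.6 and 112 CPM (2.77-fold higher, 2.55 to 3.0), Nfil3, its antagonist, at 5.97 and 1.48 CPM (4.02-fold lower, 2.65 to 6.30), and the core genes Clock and Arntl at 73.7 and 64.6 CPM and at 47.7 and 42.9 CPM, within the threshold.

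Imprinted growth genes lay on both sides, with 3 of 18 higher and 4 lower. Nnat, a paternally expressed proteolipid gene, was at 1503 and 422 CPM (3.56-fold lower, 3.48 to 3.65), and Mest, also paternally expressed, at 161 and 546 CPM (3.40-fold higher). Ptgs2, the inducible cyclooxygenase, was at 6.42 and 0.159 CPM at day 3 (40.3-fold lower, 13.5 to 198) and at 0.197 and 0.551 CPM at day 0. Pla2g7, which inactivates platelet-activating factor, was at 952 and 3136 CPM (3.30-fold higher).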
